A study of Mus musculus with 6 samples.

Results

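The genes described here are 31 markers of microglia, the resident macrophages of the brain, out of 55385 genes counted in cultures of mouse primary cortical neurons. They were taken as a named list, each symbol was matched to one gene identifier, and 26 of the 31 passed the filter on low counts. Cells were isolated from cortices of embryonic day 18 embryos and kept for 16 days in vitro on coated plates, and all of them received 2.5 uM AraC, an inhibitor of DNA synthesis, over 24 hours starting on day 2. Of the 6 libraries, 3 were labelled control and had no KCl. The other 3, labelled activated, followed a KCl pulse of 5 minutes, a wash and 30 minutes without it, with the KCl given as 50 mM in one label field and as 50 uM in another. The labels name neither strain nor genotype and leave unsaid from how many cultures or animals the replicates came, so the spread behind each p-value may be technical. Wherever 3 values are listed for a group, they stand in the order of its replicates 1, 2 and 3.

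Microglia arise from yolk sac progenitors and not from the neural lineage, and they reach cortical cultures only as cells carried along with the dissected tissue. Their upkeep depends on the receptor CSF1R and its ligands, their identity on the transcription factors PU.1, IRF8 and SALL1, and their clearance of debris on complement, Fc receptors, the TREM2-TYROBP receptor complex and lysosomal proteases. Resident microglia in the brain are recognised by P2RY12, TMEM119 and SIGLECH, whereas most of the other genes on the list are shared with macrophages elsewhere.

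Own-strand gene reads ranged from 17752711 to 32919975 per library, lowest in activated replicate 1. Reads of the mitochondrial genome made up 14.7% to 17.1% of gene reads in libraries labelled control and 21.3% to 25.0% in those labelled activated. Of 24 neuron markers tested 19 were lower and 1 higher in the libraries labelled activated, and of 16 astrocyte markers 15 were higher (edgeR quasi-likelihood test, adjusted p below 0.05). Among all tested genes 20.6% were called lower and 16.2% higher. The activity-induced genes Arc, Npas4 and Fosb were lower in all 3 libraries labelled activated (log2 fold changes of −1.84, −1.84 and −2.39), against the direction in which depolarisation is known to move them, and every direction below rests on the labels.

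RNA of the listed genes was a small part of every library. Their reads made up 0.0203% to 0.0286% of gene reads in libraries labelled control, and 0.0247%, 0.0313% and 0.0410% in activated replicates 1, 2 and 3. In CPM (counts scaled to library size, with TMM factors between libraries) the summed level of the 31 genes was 255, 279 and 197 in control libraries, and 261, 311 and 421 in activated libraries. Activated replicate 1 thus lay within the range of the control libraries, and activated replicates 2 and 3 lay above it. The ratio of the group means was 1.36, and 1.18 without activated replicate 3. In bulk RNA, a change in the number of cells of a type and a change in RNA per cell cannot be told apart.

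The levels of the genes spanned a wide range. Per kilobase of exon, the control mean was highest for Lyz2, the macrophage lysozyme, at 43.9 CPM per kb, and for the lysosomal protease gene Lgmn at 35.9 CPM per kb. The endosomal glycoprotein gene Cd68 followed at 7.84, the complement gene C1qa at 6.94, the signalling adaptor gene Tyrobp at 5.23 and the protease gene Ctss at 4.55 CPM per kb. Lyz2 and Lgmn together supplied between 52.9% and 60.5% of the summed CPM in the 6 libraries. Without them the remaining 29 genes summed to 112, 113 and 81.8 CPM in control libraries against 103, 145 and 198 CPM in activated libraries, a ratio of means of 1.45. That ratio was 1.21 without activated replicate 3.

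Of the members used to recognise resident brain microglia, 5 were close to 0 and others were detected. P2ry12 and P2ry13, which encode purinergic receptors, had 25 and 20 reads over all 6 libraries, the lipid receptor gene Gpr34 had 31 and Tmem119, a microglial membrane protein gene, had 22. Siglech, a sialic acid binding lectin gene, had a single read, in activated replicate 2. None of these 5 genes passed the filter on low counts, and none had more than 13 reads in any library. In libraries of this depth 3 reads correspond to between 0.0887 and 0.179 CPM. Cx3cr1, Fcrls and Sall1, which are also used to mark brain microglia, had 419, 515 and 1130 reads over the 6 libraries and were detected in each, as were C1q, Csf1r and Tyrobp.

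P2ry12 and P2ry13 lie inside Med12l and Gpr34 inside Cask, each transcribed from the opposite strand. Of the reads over these genes on both strands, 85.5%, 89.9% and 88.6% were on the strand opposite to P2ry12, P2ry13 and Gpr34. For Csf1r, whose exons share 873 bases with exons of Hmgxb3 on the other strand, the share was 60.1%. Only reads on the gene's own strand are used here.

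Of the 26 tested genes, 12 were higher in the libraries labelled activated and none was lower (edgeR quasi-likelihood test, adjusted p below 0.05). Over all 18132 tested genes 36.8% were called, 16.2% higher and 20.6% lower. At an unadjusted p below 0.05 the test gave 17 members higher and 0 lower. Of 24 members with an adjusted p in the DESeq2 Wald test, 4 were called higher (Tyrobp, Ctss, Cd14 and Cd53) and 0 lower. That test called 13% of all genes higher. Scaling by total counts alone left 6 calls, where 11.5% of all tested genes were called higher. It ended the calls of C1qa, C1qb, Trem2, Ctss, Laptm5 and Cd53. Scaling to the neuron markers gave 20 calls, where 40% of all tested genes were called higher. The median log2 fold change of the members was 0.60, beside 0.04 over all tested genes. Their values ran from −0.03 for Fcrls, an Fc receptor-like gene, to 1.01 for Fcgr3, and 25 of 26 were above 0. The 2 groups of libraries did not overlap for 4 members, Spi1, Sall1, Trem2 and Cd14, all higher, where 22.6% of all tested genes were higher without overlap and 49% did not overlap in either direction. For 10 of the 12 genes called, at least 1 library labelled activated lay within the control range.

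**Figure D1:**
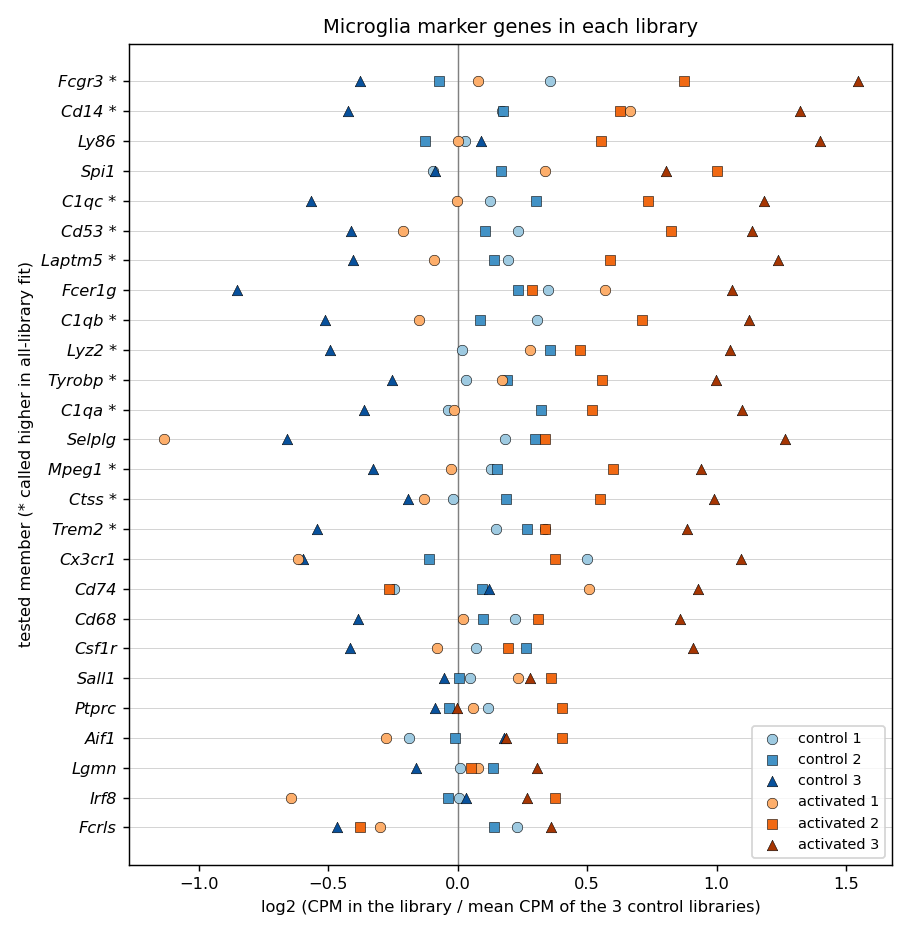
Level of each of the 26 tested genes in each library, as log2 of its CPM over the mean CPM of the 3 control libraries, ordered by fitted log2 fold change, with an asterisk at the 12 genes called higher. Activated replicate 3 is the highest library for 21 of 26 genes and control replicate 3 the lowest for 19, while activated replicate 1 is not above the highest control library for 20.

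The order of the libraries was shared by most members. Activated replicate 3 was the highest of the 6 libraries for 21 of 26 tested members, where it was the highest for 19.1% of all tested genes. Control replicate 3 was the lowest for 19 of 26, where it was the lowest for 15.2% of all tested genes. Activated replicate 2 lay above all control libraries for 20 members, beside 41.3% of all tested genes. Activated replicate 3 did so for 25, beside 38.0% of all tested genes. Activated replicate 1 lay above all control libraries for only 6 members, and at or below the highest control library for the other 20 (76.9%, beside 60.3% of all tested genes). Over the members, the level in activated replicate 3 was a median of 1.62 times the mean of activated replicates 1 and 2, whereas over all tested genes that ratio was 1.01.

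The calls followed these libraries. Without activated replicate 3, 2 of 26 members were called higher, Lyz2 and Cd14, where 17.9% of all genes tested in that fit were called higher, and the median log2 fold change of the members was 0.33. Without control replicate 3, 1 of 26 members was called, Cd14, with a median of 0.45. In that fit 4922 genes were still called in all, and 10.7% of the genes tested were called higher. Leaving out activated replicate 1 raised the count to 14 and the median to 0.80, where 12.3% of the genes tested were called higher. Leaving out activated replicate 3 lowered the log2 fold change of 24 of 26 members, all but Sall1 and Ptprc, and leaving out control replicate 3 lowered that of 22. These counts largely restate the order of the libraries given above and are not separate evidence. The share of mitochondrial reads, the neuron marker sum and the astrocyte marker sum differed between the groups in all 3 libraries labelled activated, and their part in these results was not tested.

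**Figure D2:**
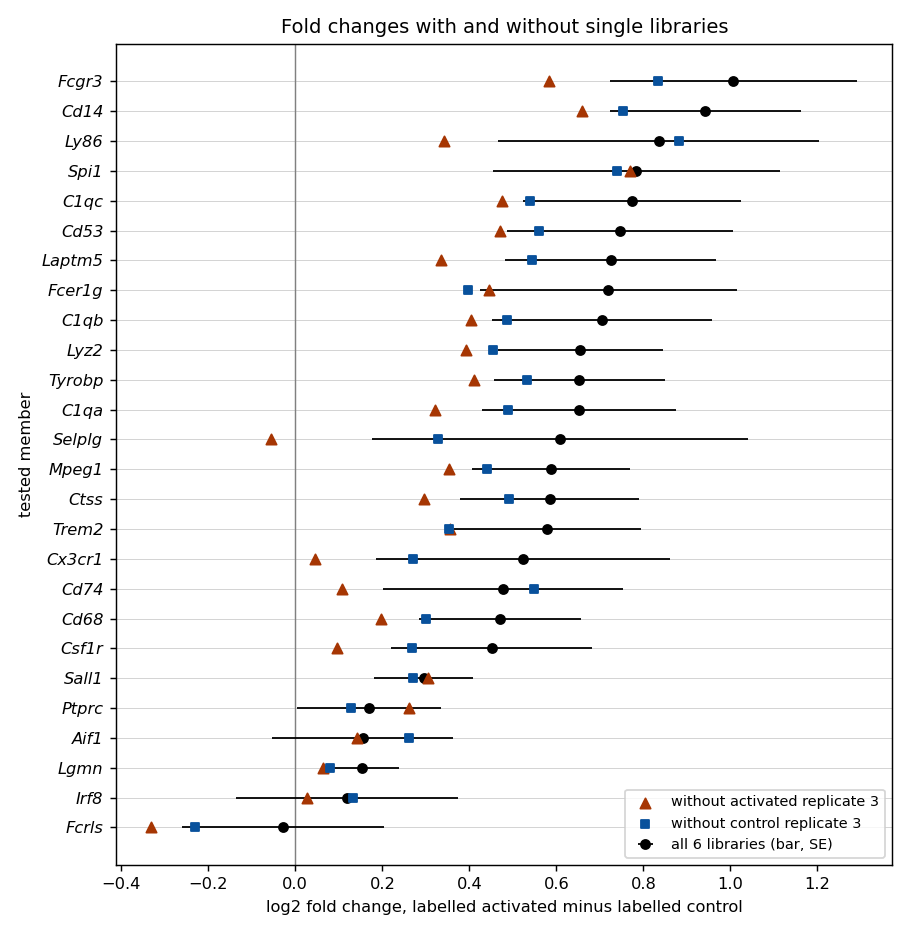
Log2 fold change of each of the 26 tested genes, libraries labelled activated minus libraries labelled control, with all 6 libraries (black, bars are SE) and with activated replicate 3 or control replicate 3 left out. Most values move towards 0 without either library, and the median falls from 0.60 to 0.33 without activated replicate 3.

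Among the surface receptors, Cx3cr1, the receptor for neuronal fractalkine, stood at 2.97, 1.95 and 1.39 CPM in control replicates 1, 2 and 3 and at 1.37, 2.73 and 4.48 CPM in activated replicates 1, 2 and 3. The lowest and the highest of its 6 values both belonged to libraries labelled activated, and its log2 fold change of 0.52 ± 0.34 (SE) did not pass (edgeR adjusted p of 0.239). Selplg, the selectin ligand gene, likewise had its extremes there, with 0.298 CPM in activated replicate 1 and 1.57 CPM in activated replicate 3 against 0.414 to 0.804 CPM in control libraries. Its log2 fold change of 0.61 did not pass and turned to −0.055 without activated replicate 3.

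Neither the growth factor receptor gene Csf1r nor the transcription factor genes of the lineage passed the test. Csf1r had 4.56, 5.21 and 3.25 CPM in control replicates 1, 2 and 3 and 4.11, 4.96 and 8.15 CPM in activated replicates 1, 2 and 3, so that activated replicates 1 and 2 lay within the control range. The fitted log2 change was 0.45 ± 0.23 (SE, with an edgeR adjusted p of 0.139), and 0.10 without activated replicate 3. Spi1, which encodes PU.1, had 8 to 21 reads per library and stood at 0.353 to 0.423 CPM in control and 0.476 to 0.754 CPM in activated libraries. Its groups did not overlap, and its log2 fold change of 0.78 ± 0.33 had an edgeR adjusted p of 0.0762. It was 0.77 without activated replicate 3.

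Irf8, the partner of PU.1 in microglia, had 1.27 to 1.33 CPM in control libraries and 0.833, 1.69 and 1.57 CPM in activated replicates 1, 2 and 3 (log2 fold change 0.12; edgeR adjusted p of 0.738). Sall1, a zinc finger gene that keeps microglial identity and is also used by neural progenitors, stood at 6.06 to 6.50 CPM in control and 7.38 to 8.08 CPM in activated libraries. Its groups did not overlap, but its log2 fold change of 0.30 ± 0.11 had an edgeR adjusted p of 0.0568. In activated replicate 3 the transcription factor genes did not stand out: relative to the mean of activated replicates 1 and 2, Spi1 was at 1.07, Irf8 at 1.24 and Sall1 at 0.986.

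The 3 chains of C1q, the recognition molecule of the classical complement pathway, were called together. They lie side by side on the minus strand of chromosome 4 (mm10): C1qb at chr4:136880129-136886187, C1qc at chr4:136889804-136893065 and C1qa at chr4:136895917-136898803. C1qa stood at 7.03, 9.02 and 5.62 CPM in control replicates 1, 2 and 3 and at 7.14, 10.3 and 15.5 CPM in activated replicates 1, 2 and 3. C1qb stood at 6.22, 5.33 and 3.52 CPM in the control libraries and at 4.52, 8.23 and 10.9 CPM in the activated libraries. C1qc stood at 5.02, 5.67 and 3.10 CPM against 4.58, 7.65 and 10.4 CPM in the same order.

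For each chain activated replicates 2 and 3 lay above all control libraries and activated replicate 1 lay among them. The log2 fold changes were 0.65 ± 0.22 for C1qa, 0.70 ± 0.25 for C1qb and 0.77 ± 0.25 for C1qc (SE, with an edgeR adjusted p of 0.0332, 0.0418 and 0.0267). None of the 3 kept its call without activated replicate 3 (0.32, 0.40 and 0.47 in the same order) or without control replicate 3 (0.49, 0.49 and 0.54). Dropping control replicate 1 also ended the calls of C1qa (0.64) and C1qc (0.85), dropping control replicate 2 that of C1qb (0.76), and dropping activated replicate 2 those of C1qb (0.70) and C1qc (0.79).

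Of TREM2, the signalling adaptors and the Fc receptors with their relatives, 3 of 5 were called higher. Fcgr3 (chr1:171051174-171064935, minus strand), an activating receptor for immunoglobulin G, had the highest fold change among the tested members with all libraries. It stood at 3.53, 2.63 and 2.13 CPM in control replicates 1, 2 and 3 and at 2.92, 5.06 and 8.06 CPM in activated replicates 1, 2 and 3. Activated replicate 1 lay within the control range and activated replicate 3 far above it. The log2 fold change was 1.01 ± 0.28 (SE, with an edgeR adjusted p of 0.0134), with no call without activated replicate 3 (0.58) or control replicate 3 (0.83).

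Tyrobp (chr7:30413760-30417585, plus strand), the adaptor that carries the signal of TREM2, had 3.57, 3.98 and 2.93 CPM in control and 3.93, 5.14 and 6.96 CPM in activated replicates 1, 2 and 3. The fitted log2 change was 0.65 ± 0.20 (SE, with an edgeR adjusted p of 0.0188), and 0.41 and 0.53 with no call without activated replicate 3 and control replicate 3. Trem2 itself, the lipid-sensing receptor, went from 3.82, 4.15 and 2.36 CPM to 4.34, 4.35 and 6.37 CPM. All 3 libraries labelled activated lay above all 3 controls, although activated replicates 1 and 2 were above control replicate 2 by only a small margin.

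The log2 fold change of Trem2 was 0.58 ± 0.22 (SE, with an edgeR adjusted p of 0.0479), and the call ended when control replicate 1 (0.67), control replicate 3 (0.35) or activated replicate 3 (0.36) was dropped. Fcer1g, the common gamma chain of Fc receptors, had a log2 fold change of 0.72 ± 0.30 with no call (edgeR adjusted p of 0.0704), and was called without activated replicate 2 (0.90). Fcrls was the only tested member below 0. It had 3.78, 3.56 and 2.34 CPM in control and 2.62, 2.48 and 4.14 CPM in activated replicates 1, 2 and 3, with overlapping groups and a log2 fold change of −0.03 ± 0.23 (edgeR adjusted p of 0.934).

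Lysosomal and phagocytic genes held most of the summed level, and 4 of 6 were called higher. Lyz2 (chr10:117277331-117282321, minus strand) stood at 58.3, 73.9 and 40.9 CPM in control replicates 1, 2 and 3 and at 70.1, 80.1 and 120 CPM in activated replicates 1, 2 and 3. Activated replicate 1 lay below control replicate 2. The log2 fold change was 0.66 ± 0.19 (SE, with an edgeR adjusted p of 0.0155), which held without activated replicate 3 at 0.39 but not without control replicate 3 at 0.45. Mpeg1, the pore-forming protein of phagosomes, went from 19.7, 20.1 and 14.4 CPM to 17.7, 27.4 and 34.7 CPM (log2 fold change 0.59 ± 0.18; edgeR adjusted p of 0.0207). Laptm5, a lysosomal membrane protein gene of blood-lineage cells, went from 9.36, 9.02 and 6.18 CPM to 7.68, 12.3 and 19.3 CPM (0.72 ± 0.24; edgeR adjusted p of 0.0302).

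In both genes activated replicate 1 lay below the highest control library. Ctss, a lysosomal cathepsin gene, went from 6.11, 7.03 and 5.41 CPM to 5.65, 9.05 and 12.3 CPM (0.58 ± 0.21, edgeR adjusted p of 0.0381). Activated replicate 1 lay there too within the control range. The calls of these 3 genes were lost without activated replicate 3 (0.35, 0.34 and 0.30 for Mpeg1, Laptm5 and Ctss) and without control replicate 3 (0.44, 0.54 and 0.49). Mpeg1 also lost its call without activated replicate 2 (0.58), Laptm5 without control replicate 2 (0.81), and Ctss without control replicate 1 (0.58) or activated replicate 2 (0.61).

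The other members of this group did not pass. Cd68 stood at 7.54 to 11.5 CPM in control and 9.999 to 17.8 CPM in activated libraries, with a log2 fold change of 0.47 ± 0.19 (SE, with an edgeR adjusted p of 0.0624), and was called without control replicate 1 (0.60) or activated replicate 1 (0.62). Lgmn, which many cell types express, stood at 83.9, 91.6 and 74.5 CPM against 88.0, 86.3 and 103 CPM, with overlapping groups and a log2 fold change of 0.15 ± 0.08 (edgeR adjusted p of 0.169).

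Cd14, the co-receptor for bacterial lipopolysaccharide, was the one member called higher in every fit run, that is in all 6 fits that left out a library and in the 8 other alternatives. It stood at 3.04, 3.05 and 2.01 CPM in control replicates 1, 2 and 3 and at 4.29, 4.17 and 6.74 CPM in activated replicates 1, 2 and 3. The groups did not overlap, with the lowest activated library above the highest control library. The log2 fold change was 0.94 ± 0.22 (SE, with an edgeR adjusted p of 0.0044), and between 0.66 and 1.17 over the alternatives (adjusted p from 1.83e-06 to 0.0264). Without activated replicate 3 it was 0.66 (adjusted p = 0.0148).

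Cd53, a tetraspanin of leukocytes, was the other call among the pattern recognition and leukocyte surface genes, with 3.89, 3.56 and 2.48 CPM in control and 2.86, 5.85 and 7.28 CPM in activated replicates 1, 2 and 3 (0.75 ± 0.26; edgeR adjusted p of 0.0368). The call ended when control replicate 2 (0.81), control replicate 3 (0.56), activated replicate 2 (0.71) or activated replicate 3 (0.47) was dropped. Ly86, a partner of Toll-like receptor complexes, had 7 to 35 reads per library and a log2 fold change of 0.83 ± 0.37 with no call (edgeR adjusted p of 0.0907), and was called without activated replicate 1 (1.03). Cd74, the invariant chain of class II antigen presentation, had a value of 0.48 ± 0.28 (edgeR adjusted p of 0.189), and was called without activated replicate 2 (0.76).

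The general leukocyte gene Ptprc, which encodes CD45, and Aif1, which encodes the microglial stain IBA1, did not pass the test. Ptprc stood at 3.71, 3.34 and 3.22 CPM in control and 3.57, 4.53 and 3.42 CPM in activated replicates 1, 2 and 3 (0.17 ± 0.17; edgeR adjusted p of 0.442). Aif1 stood at 1.84, 2.07 and 2.36 CPM against 1.73, 2.77 and 2.38 CPM (0.15 ± 0.21; edgeR adjusted p of 0.584). In both genes activated replicate 3 lay within the range of the other libraries, at 0.844 and 1.06 times the mean of activated replicates 1 and 2 for Ptprc and Aif1. By the same measure Fcgr3 was at 2.02, Laptm5 at 1.93, C1qa at 1.77 and Lyz2 at 1.59, beside a median of 1.62 over the tested members. Whether these ratios differ by more than the noise of low counts was not tested.

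**Figure D3:**
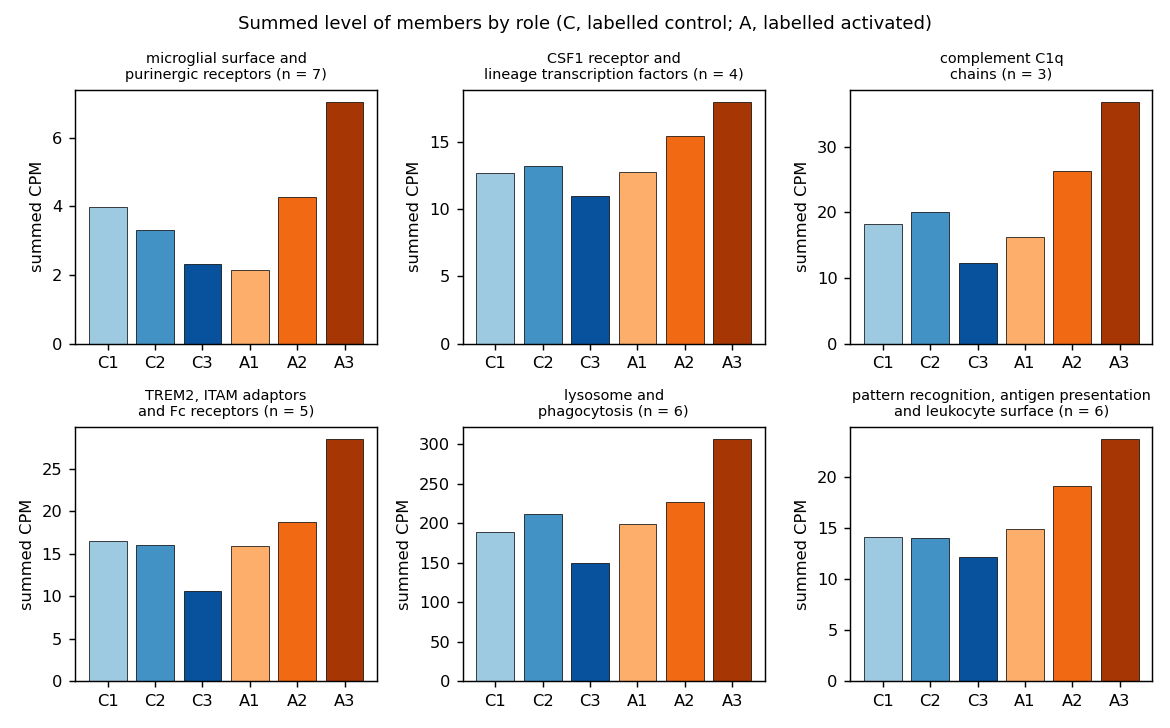
Summed CPM of the listed genes by role in each library (bars; C1 to C3, labelled control replicates 1 to 3; A1 to A3, labelled activated replicates 1 to 3), with the number of genes in each panel title. A3 is the highest bar in every panel, and A1 lies within or below the control range in all panels but that of pattern recognition and leukocyte surface genes.

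Promoter sequences were compared because PU.1 is known to bind the promoters of many of these genes at the core GAGGAA. RefSeq promoters (GRCm38.p6) were at hand for 22 of the 31 genes, with no entry for Gpr34, Tmem119, Selplg, Csf1r, Spi1, C1qa, Tyrobp, Cd14 and Cd74, and the 250 bases before each start were searched on both strands. GAGGAA occurred before the RefSeq start of 12 of the 22 genes (54.5%), beside 25.9% of 27025 genes with a RefSeq promoter. Among genes called higher with all libraries it occurred in 7 of 9, and among those not called or not tested in 5 of 13. This split rests on calls that depended on single libraries. Without activated replicate 3 only Lyz2, which had no match, and Cd14, which had no promoter entry, were called. Whether the match goes with the calls was not tested. The longer form GAGGAAGT, which contains the shorter one, occurred in 1 of 22 members, C1qc, beside 2.79% of all genes, and the composite motif of PU.1 with IRF factors in none, beside 2.68%. The short core was searched after the longer form, and these are matches of letters and not measured binding.

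The matches of 6 of the 7 called genes, all but Laptm5, are shown 5′ to 3′ on the strand of the gene, with the core, or its reverse complement, in capitals and up to 26 bases on each side. The windows are chr4:136886201-136886256 (minus) for C1qb, chr4:136893076-136893133 (minus) for C1qc, chr17:48346335-48346392 (plus) for Trem2, chr1:171059404-171059435 (minus) for Fcgr3, chr3:95526596-95526653 (plus) for Ctss and chr3:106790157-106790214 (minus) for Cd53.
C1qb: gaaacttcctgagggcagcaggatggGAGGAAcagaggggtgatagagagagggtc
C1qc: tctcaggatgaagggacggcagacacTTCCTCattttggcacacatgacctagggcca
Trem2: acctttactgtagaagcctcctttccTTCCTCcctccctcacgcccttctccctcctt
Fcgr3: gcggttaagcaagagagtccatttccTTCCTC
Ctss: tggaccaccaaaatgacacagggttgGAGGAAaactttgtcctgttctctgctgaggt
Cd53: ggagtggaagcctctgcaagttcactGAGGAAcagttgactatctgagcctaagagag
The core began 30 bases before the RefSeq start in C1qb, 39 in Cd53, 40 in Trem2, 38 in Laptm5, 164 in Ctss, 193 in C1qc and 6 in Fcgr3. In Laptm5, C1qc and Fcgr3 that start lies inside the span of the gene in GENCODE. The matches of Laptm5 and Fcgr3 therefore lie within the annotated gene, and that of C1qc lies outside it.

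Further genes of microglia and other myeloid cells had a median log2 change of 0.57. Of 32 tested (of 36), 9 rose and 2 fell, where 16.2% of all tested genes were called higher and 20.6% lower. In activated replicates 1, 2 and 3 the median log2 ratio to the control mean was 0.08, 0.53 and 0.72 in this list, and −0.0016, 0.43 and 0.98 in the listed markers. The kinase gene Lyn (0.66 ± 0.13, SE) and the transcription factor gene Runx1 (0.83 ± 0.17) rose. Coro1a, an actin regulator of leukocytes and neurons, fell (−0.49 ± 0.07). Without activated replicate 3, 7 rose and 2 fell, where 17.9% of all genes tested in that fit were called higher. Without activated replicate 1, 15 rose, where 12.3% of all genes tested were called higher. Scaled to the neuron markers, 21 rose, where 40% of all tested genes did.

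Most markers of border macrophages and blood cells were low, but not all. Of 16 genes for macrophages of the brain borders, monocytes, granulocytes, lymphocytes and red cells, 4 passed the filter and 1 was called, the mannose receptor gene Mrc1, at 4.84 ± 0.960 CPM in control and 7.99 ± 2.61 CPM in activated libraries (SD, n = 3 each; log2 fold change 0.76, edgeR adjusted p of 0.0109). Control means of these 4 were 6.73 CPM for Stab1, 4.84 for Mrc1, 1.31 for Ms4a7 and 1.07 for Lyve1. Among the listed microglia markers they were 57.7 CPM for Lyz2, 4.34 for Csf1r and 2.10 for Cx3cr1. The monocyte genes Ccr2, Ly6c2 and Plac8 and the granulocyte gene S100a9 had 0 reads in all 6 libraries. The summed level of the 16 genes was 11.1 to 17.6 CPM in control libraries and 14.6, 20.2 and 24.6 CPM in activated replicates 1, 2 and 3. The call of Mrc1 was lost without control replicate 3, where 0 of the 4 tested genes passed. The share of all tested genes called higher was 16.2% with all libraries and 10.7% in that fit.

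Ligands and receptors on which microglia depend were higher in all 3 libraries labelled activated by their median. Of 17 genes tested, 10 rose, with a median of 0.38, and the median log2 ratio to the control mean was 0.34, 0.21 and 0.60 in activated replicates 1, 2 and 3. Csf1, a ligand of CSF1R made by several brain cell types, went from 48.7 ± 7.28 to 84.1 ± 2.70 CPM (SD, n = 3; log2 fold change 0.79 ± 0.09, edgeR adjusted p of 3.7e-05). Its values of 83.0, 82.1 and 87.2 CPM in activated replicates 1, 2 and 3 lay close together and well above the highest control value of 56.8 CPM. The receptor kinase gene Axl (0.70) rose too, as did Pros1 (0.76) and Gas6 (0.33). These 2 encode bridging ligands of its receptor family, which tag dying cells for uptake. Without activated replicate 3, 9 of 17 rose. The share of all tested genes called higher was 16.2% with all libraries and 17.9% in that fit.

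Complement genes beyond C1q rose, 9 of 11 tested, with a median of 0.89. C3, the central complement component, went from 46.4 ± 7.64 to 99.1 ± 17.3 CPM (SD, n = 3; log2 fold change 1.10 ± 0.12, edgeR adjusted p of 4.18e-05). Its value in activated replicate 1, 106 CPM, was close to that in activated replicate 3, 112 CPM, unlike C1q in the same libraries. The regulator gene Serping1 (1.24) and C4b (0.98) rose as well, and 8 of 11 passed without activated replicate 3. Of 10 antigen presentation genes 6 were tested and 4 rose. These were the class I genes B2m (0.65), H2-D1 (0.42) and H2-K1 (0.46) and the peptide transporter gene Tap1 (0.41). Without activated replicate 3, 3 of 6 passed, and without control replicate 3, 2 of 6. The share of all tested genes called higher was 16.2% with all libraries, 17.9% without activated replicate 3 and 10.7% without control replicate 3.

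Lysosomal genes used by all cell types rose in 17 of 18 cases with a median of 0.38, among them Laptm4a (0.46), Lamp2 (0.46), Npc2 (0.42) and Asah1 (0.32), with 13 of 18 passing without activated replicate 3 and 11 without control replicate 3. Genes of the disease-associated state of microglia rose in 10 of 10 tested cases, with a median of 0.70. They included Apoe and Axl, which astrocytes also express, Gpnmb (0.71), a lysosomal glycoprotein gene, and the chemokine gene Ccl6 (0.99). The lists overlap, so their counts are not independent. Apoe is also on the astrocyte list, Axl on the list of ligands and receptors, and another gene on the lysosomal list. Ccl6 stood at 4.94 to 7.06 CPM in control libraries and at 7.26, 10.2 and 16.8 CPM in activated replicates 1, 2 and 3. In that list 8 of 10 passed without activated replicate 3 and 5 of 10 without control replicate 3. Beside both lists, the share of all tested genes called higher was 16.2% with all libraries. It was 17.9% without activated replicate 3 and 10.7% without control replicate 3.

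Of 14 tested NF-kB targets and cytokines 11 rose, with a median of 0.80, where 16.2% of all tested genes were called higher. The smallest p-values were those of Cxcl1 (1.67), Icam1 (0.68), Cebpd (0.76) and Nfkbiz (0.65). Without activated replicate 3, 10 rose and 1 fell, where 17.9% of all genes tested were called higher. The macrophage cytokine genes Tnf and Il1b, singled out after their values were seen, had at most 5 and 9 reads in any library. The astrocyte list had a median log2 ratio to the control mean of 0.60, 0.45 and 0.79 in activated replicates 1, 2 and 3, and the list of endothelial, mural and fibroblast markers 0.43, 0.44 and 0.69. In the latter list 7 of 12 tested genes rose, and 4 of 7 did in the oligodendrocyte lineage, beside 16.2% of all tested genes. Of 8 genes of dividing cells Mki67 rose and Pcna fell, and no gene of this list was called higher without control replicate 2, without control replicate 3, without activated replicate 1 or with total counts alone. By the medians of the astrocyte and vascular lists activated replicate 1 was above all control libraries in these lists. It lay among the control libraries in the microglia markers, the further myeloid genes, the border macrophage and blood cell list and the dividing cell markers. Whether this difference between lists exceeds the spread between libraries was not tested.

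**Figure D4:**
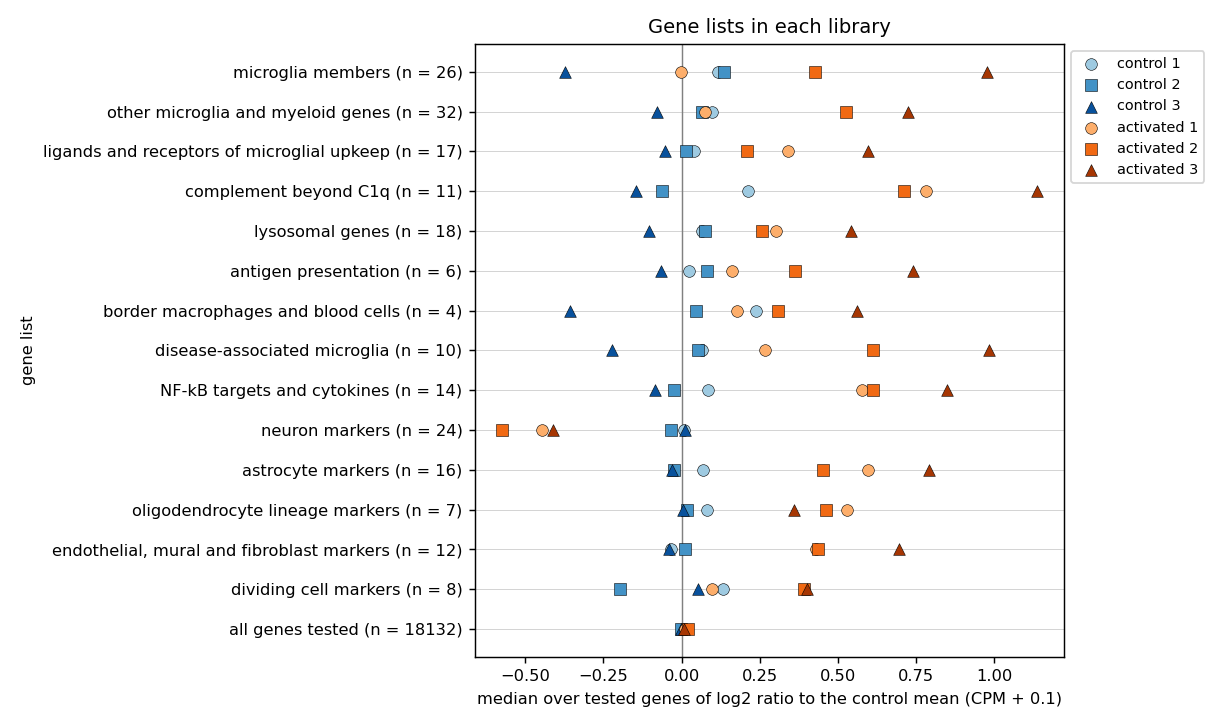
Median over the tested genes of each list of the log2 ratio of CPM to the control mean (0.1 CPM added to both), one point per library. Microglia markers, further myeloid genes, border macrophages and blood cells, and dividing cell markers have activated replicate 1 among the control libraries. Complement, astrocyte and vascular lists have all 3 libraries labelled activated above the control libraries.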

How the data were processed

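Total RNA depleted of ribosomal RNA was sequenced strand-specifically as paired reads of 150 bp, per the labels' protocols. The submitters' processing notes name STAR 2.5.2b, the build mm10 and edgeR. The annotation release was not given in the sources used here. The deposited files hold raw counts of reads per gene, unstranded and for each strand, and the reverse-strand column was used, since the other strand held 4.05% to 4.29% of reads on both strands. The 4 lines naming no gene were left out; reads outside annotated exons were 25.1% to 37.3% of all reads, unmapped reads 7.49% to 9.88%, multimapping reads 5.17% to 6.34% and ambiguous reads 0.736% to 0.977%. Symbols and exon lengths came from GENCODE mouse release 21, which named 55144 of 55385 identifiers.

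In edgeR 4.0.16 under R 4.3.3, low genes were removed by filterByExpr (a count of 10, a total of 15), TMM factors were computed and all 6 libraries entered the quasi-likelihood F test, adjusted by Benjamini-Hochberg over 18132 genes with a threshold of 0.05. Dividing the size of each log2 fold change by the root of F gave its standard error. CPM used effective library sizes. Gene lists are described by counts and medians only. Alternatives were DESeq2 1.42.0 size factors and Wald test, total counts, scaling to 24 neuron markers, other low-count filters, unstranded counts, a block for the replicate number, and fits that each dropped 1 library. On simulated counts for 18132 genes 42 of 67 genes with a 1.5-fold change were found, as were 59 of 67 with a 2-fold change, and there were 11 false calls. Replicates differed by more than sampling noise, so none was merged. All listed markers are named, and of each other list the 4 genes with the smallest p and genes at 0 that define a cell type, apart from some that are not reported here; Tnf, Il1b, Arc, Npas4 and Fosb are exceptions chosen after their values were seen. The members, lists and tests were chosen with earlier results of these data known. Plots were drawn with matplotlib 3.10.9.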

Additional observations from a re-analysis of the deposited data

How the results depend on the processing

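The number of members called higher depended on the scaling, the test and single libraries. It was 12 with all libraries and TMM, 6 with total counts only and 20 with libraries scaled to the neuron markers. It was 4 with the DESeq2 Wald test and 3 of 26 with the replicate block (Fcgr3, Lyz2 and Cd14). Over all genes tested, the share called higher was 16.2%, 11.5%, 40%, 13% and 12% in the same order. The number of members called higher lay between 1 (without control replicate 3) and 14 (without activated replicate 1) when single libraries were left out. In those 2 fits 10.7% and 12.3% of all genes tested were called higher. No member was called lower in any alternative, and the members' median log2 fold change stayed positive, between 0.33 and 0.83. The ratio of summed CPM was 1.17 to 1.60 over the alternatives that give one. Of genes called over the whole table, 55.9% were lower with TMM, 68.7% with total counts only and 13.4% under the neuron marker scaling, which moved the median of all genes from 0.04 to 0.28. Same-numbered control and activated libraries did not deviate together (correlations of −0.03, −0.25 and −0.31 for replicates 1, 2 and 3), so the numbers were not taken as pairs; with the block 5278 genes were called, against 6678. No sample correlated best with its own number. Some members that were not called changed sign. Fcrls was at 0.20 with neuron marker scaling, at 0.0063 with the filter of 1 CPM in 3 libraries, and between −0.33 and 0.13 as single libraries were left out. Under the same omissions Selplg ranged from −0.055 (without activated replicate 3) to 0.92, and Irf8 from −0.036 (without activated replicate 2) to 0.31. Over all members and alternatives, 276 values kept direction and call, 57 lost and 18 gained a call, and 8 changed sign. Activated replicate 1 had the fewest reads, and the 5 untested members had too few reads for a comparison.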
